A study of Caenorhabditis elegans with 7 samples.

Results

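The 10 genes followed here build and desaturate fatty acids, and they were measured in starved first-stage (L1) larvae of Caenorhabditis elegans whose parents had been fed different amounts of bacteria. They were chosen by name, with earlier results of these data known, and the rule uses no measured value: pod-2 and fasn-1 (synthesis), sbp-1 (transcriptional control), and the desaturases fat-1, fat-2, fat-3, fat-4, fat-5, fat-6 and fat-7. They are 10 of the 44968 features counted, and 9 of the 10 passed the filter on low counts that left 14867 features for testing. Progeny of parents on dietary restriction (DR, 4 libraries, replicates A to D) were set against progeny of parents fed ad libitum (AL, 3 libraries, replicates A to C). All animals were of the wild-type strain N2. Parents of both groups grew for 96 hr in liquid S-complete culture with the bacterial strain HB101, at 3.1 mg per mL for DR and 25 mg per mL for AL according to the deposited notes, although the sample labels write the DR amount in ml per mL. Embryos were released from the parents with bleach, and the larvae were kept without food in S-basal at 20 °C for 24 hr before whole-animal RNA was taken. The sources differ on whether the parents entered that culture as embryos or as arrested larvae. All 7 libraries are of starved larvae, and none is of a fed larva or a parent.

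Fatty acid synthesis in the worm starts with acetyl-CoA carboxylase (POD-2) and fatty acid synthase (FASN-1), which make palmitic acid. Delta-9 desaturases (FAT-5, FAT-6 and FAT-7) place the first double bond, and, unlike mammals, the worm then makes its own polyunsaturated fatty acids with a delta-12 desaturase (FAT-2), an omega-3 desaturase (FAT-1), a delta-6 desaturase (FAT-3) and a delta-5 desaturase (FAT-4). SBP-1, the worm homolog of the SREBP transcription factors, promotes transcription of many of these genes, and the intestine is the main site of fat storage and of much of this synthesis.

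Reads assigned to features totalled 16626117 to 20874237 per DR library and 16805120 to 22952310 per AL library. Defining markers of intestine, epidermis and neurons were all counted, and 5 of 6 body wall muscle markers were, with hlh-1 listed at 0. Some libraries stood apart. Ribosomal RNA made up 22.5% of feature reads in DR replicate D. It made up 11.01% to 12.2% in DR replicates A, B and C, and 7.54% to 11.8% in the AL group. The 12 markers of adults or embryos summed to 747 CPM (read counts scaled to the library total) in DR replicate C. Their sum lay between 98.5 and 122 CPM in DR replicates A, B and D and between 114 and 148 CPM in the AL group. Most of the sum in DR replicate C was the vitellogenin genes vit-2 (290 CPM) and vit-6 (284 CPM). The marker cbd-1 was also highest there, at 15.5 CPM, but oma-1 was not (3.81 CPM, against 5.02 CPM in AL replicate B). Genes of the moulting and cuticle list summed to 89.2 CPM in DR replicate B and 92.7 CPM in AL replicate B, and to between 32.9 and 48.6 CPM in the other 5 libraries. Body wall muscle markers summed to 6780 to 9403 CPM in DR progeny and 9504 to 9822 CPM in AL progeny, with no overlap. Most of that sum was unc-54, at 4094 to 6108 CPM in DR progeny and 6117 to 6408 CPM in AL progeny. The groups overlapped for the other muscle markers counted, and all 5 were fitted below 0. Epidermal markers summed to 1132 to 1314 CPM in DR progeny and 1248 to 1453 CPM in AL progeny, and neuronal markers to 1826 to 1993 CPM in DR progeny and 1773 to 1945 CPM in AL progeny. The deposited count files carry 2 name prefixes whose meaning the labels do not give. Prefix 1 holds DR replicates A, B and C with AL replicate A, and prefix 2 holds DR replicate D with AL replicates B and C.

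No member of the gene set passed the threshold between DR and AL progeny. By edgeR's quasi-likelihood test with Benjamini-Hochberg adjustment over all 14867 features, 0 of the 9 tested members had an adjusted p under 0.05 in either direction. Over all features the same test called 2 higher in DR progeny (0.0135%) and 0 lower (0%). At an unadjusted p under 0.05 the edgeR test kept 1 of the 9 members, fat-6, while 10.7% of all features did (5.39% higher and 5.35% lower). DESeq2, limma-voom and edgeR's exact test each called 0 members as well. Of the 9 members, 5 had fitted changes below 0 and 4 above, with a median log2 change of -0.15, against 0.01 over all features tested.

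**Figure D1:**
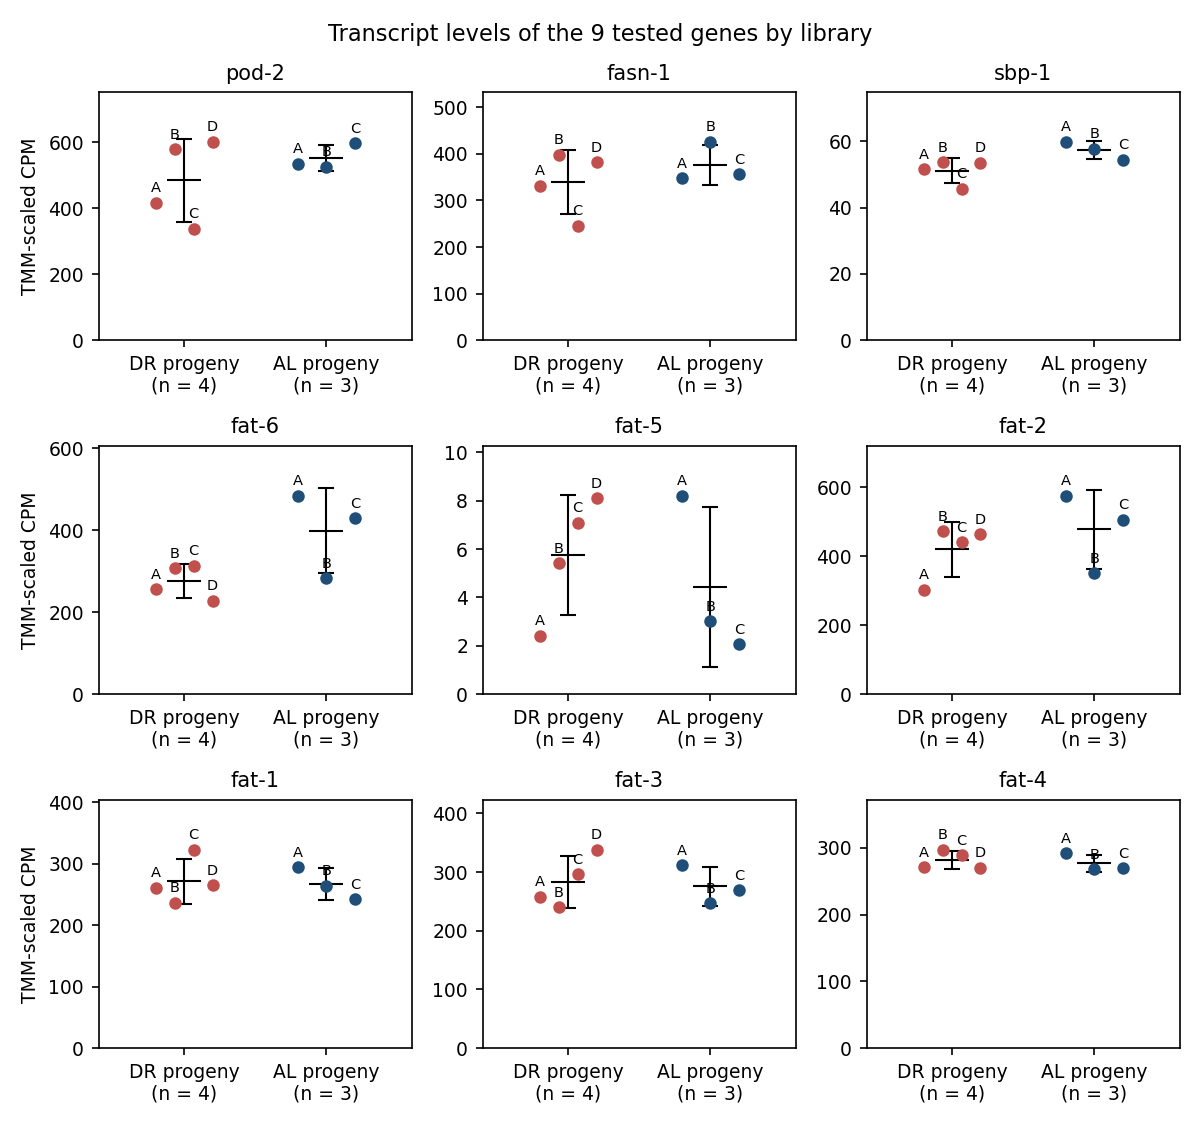
Each panel shows 1 gene, with the TMM-scaled CPM (vertical axis, from 0) of every library as points and the group mean ± SD beside them, DR progeny (4 libraries) left of AL progeny (3 libraries). The groups overlap in every panel except sbp-1, where all 4 DR libraries lie below all 3 AL libraries; fat-7, listed at 0 throughout, is not drawn.

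Levels of single genes are given as TMM-scaled CPM, which compare 1 gene between libraries. Expression of pod-2, on chromosome II, was 417, 579, 338 and 602 CPM in DR replicates A, B, C and D, against 535, 525 and 596 CPM in AL replicates A, B and C. DR replicates A and C lay below every AL library, and B and D lay within or just above the AL range. The means were 484 ± 127 CPM in DR progeny (SD, n = 4) and 552 ± 38.4 CPM in AL progeny (SD, n = 3), a log2 change of -0.19 (SE 0.18, edgeR adjusted p = 0.731).

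Expression of fasn-1, on chromosome I, was 332, 398, 245 and 382 CPM in the 4 DR libraries and 348, 426 and 357 CPM in the 3 AL libraries. The lowest value was again in DR replicate C, and the remaining DR values lay inside or close to the AL range. The means were 339 ± 68.6 CPM in DR progeny (SD, n = 4) and 377 ± 43.2 CPM in AL progeny (SD, n = 3), with a log2 change of -0.15 (SE 0.16, edgeR adjusted p = 0.747). Leaving out 1 library at a time gave pod-2 log2 changes from -0.31 (without DR replicate D) to -0.05 (without DR replicate C, the library high in adult or embryo markers). For fasn-1 they ran from -0.24 (without DR replicate B) to -0.02 (without DR replicate C). The part of the adult or embryo markers in these values was not tested. Within file-name prefixes 1 and 2 the log2 change was -0.27 and 0.11 for pod-2, and -0.10 and -0.03 for fasn-1.

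The transcription factor gene sbp-1, on chromosome III, was the only member whose groups did not overlap. Its level was 51.6, 53.6, 45.6 and 53.5 CPM in the DR libraries and 59.9, 57.7 and 54.4 CPM in the AL libraries. The gap was narrow: the highest DR library, B, and the lowest AL library, C, differed by less than either group's own range. DR progeny averaged 51.1 ± 3.74 CPM (SD, n = 4) and AL progeny 57.3 ± 2.77 CPM (SD, n = 3), and the log2 change of -0.17 (SE 0.09) had an edgeR adjusted p of 0.526. Of all features tested, 5.88% had every DR library below every AL library, and 5.97% had every DR library above. With 9 members, 1 gene in that position is not a result about the set. The body wall muscle marker sums, made up mostly of unc-54, separate the groups in the same direction. Their part in the sbp-1 difference was not tested. Leaving out 1 library at a time gave sbp-1 log2 changes from -0.20 (without AL replicate C) to -0.11 (without DR replicate C), and within prefixes 1 and 2 it was -0.25 and -0.06.

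Of the delta-9 desaturases, fat-6 showed the largest difference relative to its error among the 9 members. This gene, on chromosome IV, encodes a stearoyl-CoA desaturase that makes oleic acid. Its level was 256, 307, 314 and 228 CPM in DR replicates A to D, against 485, 283 and 429 CPM in AL replicates A to C. AL replicates A and C exceeded every DR library, while AL replicate B lay among the DR values. DR progeny averaged 276 ± 41.3 CPM (SD, n = 4) and AL progeny 399 ± 104 CPM (SD, n = 3), a DR to AL ratio of 0.692 (95% interval 0.524 to 0.914). The log2 change of -0.53 (SE 0.18) had an unadjusted p of 0.0146 and an adjusted p of 0.376 in the edgeR test, the 561st smallest p of all features. The authors' deposited table gives fat-6 a log2 fold change of -0.53 with an adjusted p of 0.163, and its adjusted p for the other 8 members ran from 0.716 to 0.990.

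The sign of the fat-6 change was the same within both file-name prefixes, at -0.73 in prefix 1 and -0.64 in prefix 2 on the log2 scale, although each prefix holds a single library of 1 group. With the ribosomal RNA share as a covariate it was -0.29 (edgeR unadjusted p = 0.114). Leaving out 1 library at a time gave values from -0.73 (without AL replicate B) to -0.37 (without AL replicate A). The edgeR unadjusted p was 0.000449 without AL replicate B and 0.0689 without AL replicate A. The 12 intestinal marker genes summed to 4703 to 6953 CPM in DR libraries and 6718 to 7995 CPM in AL libraries. The largest single part was asp-1, at 2294 to 4391 CPM in DR libraries and 3746 to 5168 CPM in AL libraries. For 3 of the 12 (ifb-2, cpr-6 and erm-1) every DR library lay below every AL library, as for 5.88% of all features. Of the list, 8 genes were fitted below 0 and 4 above, with a median log2 change of -0.16. Over all features 48.4% were below 0. The part of these markers in the fat-6 difference was not tested. In RNA from whole larvae fewer cells of a type and less RNA per cell cannot be told apart.

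The gene fat-5, on chromosome V, encodes a palmitoyl-CoA desaturase and had the fewest reads of the 9 detected members. Its level was 2.42, 5.42, 7.10 and 8.11 CPM in the DR libraries and 8.21, 3.01 and 2.06 CPM in the AL libraries, from 43 to 190 reads per library. Each group held both low and high libraries, and the highest value of all was in AL replicate A. The means were 5.76 ± 2.49 CPM in DR progeny (SD, n = 4) and 4.43 ± 3.31 CPM in AL progeny (SD, n = 3), with a log2 change of 0.35 and a 95% interval of -1.06 to 1.77 (edgeR adjusted p = 0.854). The direction differed by prefix: the log2 change was -0.72 in prefix 1 and 1.69 in prefix 2, where DR replicate D is the only DR library and the edgeR adjusted p was 0.0232. Without AL replicate A the log2 change was 1.18 (edgeR adjusted p = 0.501), and without AL replicate C it was 0.01.

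The close paralog of fat-6, fat-7, on chromosome V, is listed at 0 reads in all 7 libraries and has no row in the authors' tables. This value is not read as absence of the transcript, because genes that every cell uses are listed at 0 in all libraries too: the ribosomal protein gene rpl-16, 1 of 78 such genes in the annotation, the translation initiation factor gene eif-1 and the pyruvate dehydrogenase subunit gene pdha-1. In all, 870 of 19271 protein-coding features are at 0 in every library. Of the 2 genes that flank it, the nearer, F10D2.8, had 0 to 2 reads per library, and F10D2.10 on the other side had 33 to 73. In every library 0 reads were listed as aligned at more than 1 place. How reads that match both fat-6 and fat-7 were treated is not given in the sources used here. Part of the fat-6 count could therefore belong to fat-7, or shared reads could be missing from both counts.

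**Figure D2:**
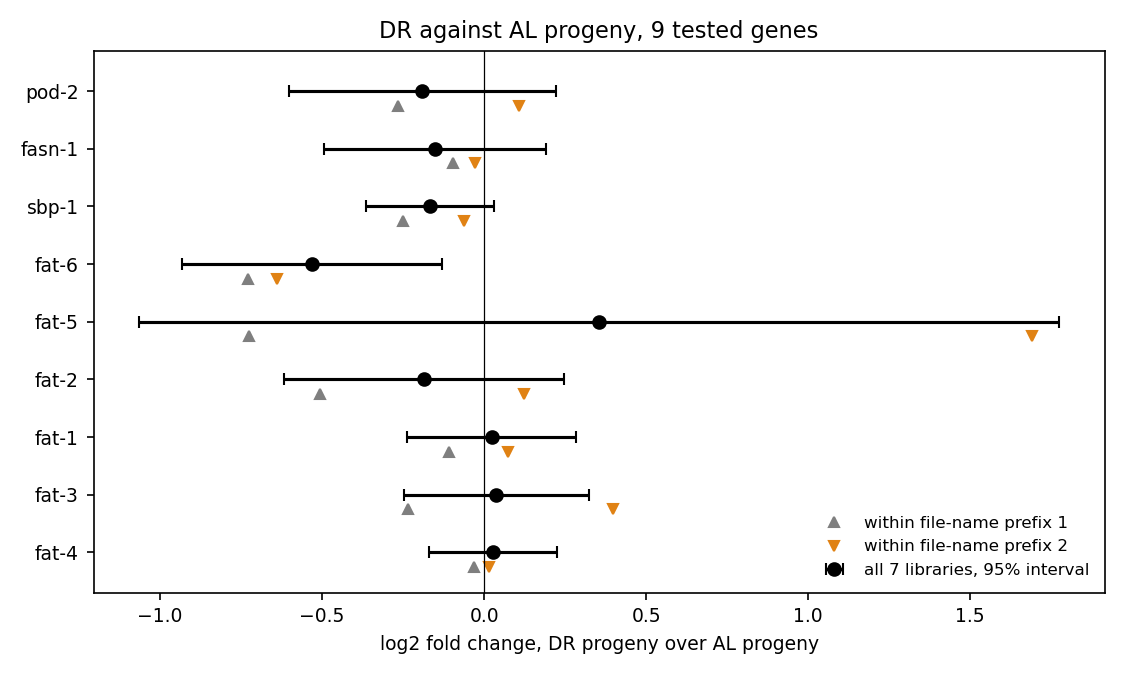
For each of the 9 tested genes the point is the edgeR log2 fold change of DR over AL progeny (horizontal axis), the bar its 95% interval, and the 2 smaller symbols the values within each file-name prefix. The interval of fat-6 (-0.93 to -0.13) is the only one that does not reach 0, and the interval of fat-5 is the widest.

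The 4 desaturases that make polyunsaturated fatty acids all lie on chromosome IV, and their DR and AL libraries overlapped for every one. The delta-12 desaturase gene fat-2, which makes linoleic acid from oleic acid, had 303, 472, 440.5 and 464 CPM in the DR libraries and 575, 351 and 505 CPM in the AL libraries. The lowest library was DR replicate A and the highest AL replicate A, both of prefix 1. DR progeny averaged 419.7 ± 79.0 CPM (SD, n = 4) and AL progeny 477 ± 114.9 CPM (SD, n = 3), with a log2 change of -0.19 (SE 0.19, edgeR adjusted p = 0.751). It was -0.51 in prefix 1 and 0.12 in prefix 2. Leaving out 1 library at a time gave values from -0.36 (without AL replicate B) to -0.03 (without AL replicate A).

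Expression of fat-1, the omega-3 desaturase gene, was 261, 237, 323 and 265 CPM in the DR libraries, against 295, 264 and 242 CPM in the AL libraries. DR replicate C was the highest library here, the reverse of its place for pod-2 and fasn-1. The log2 change was 0.02 with a 95% interval of -0.24 to 0.28 (edgeR adjusted p = 0.962), at -0.11 in prefix 1 and 0.07 in prefix 2. The delta-6 desaturase gene fat-3 had 258, 240.3, 296 and 338 CPM in the DR libraries and 312, 247 and 269 CPM in the AL libraries. Both its lowest and its highest library were DR libraries. Its log2 change was 0.04 with a 95% interval of -0.25 to 0.32 (edgeR adjusted p = 0.939), at -0.24 in prefix 1 and 0.40 in prefix 2.

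The delta-5 desaturase gene fat-4 was the steadiest member. It had 271, 297, 289 and 270.3 CPM in the DR libraries and 292, 268 and 269.6 CPM in the AL libraries, so that its highest library was 1.11 times its lowest. The log2 change was 0.03 with a 95% interval of -0.17 to 0.23 (edgeR adjusted p = 0.934), at -0.03 in prefix 1 and 0.01 in prefix 2. For comparison, the highest library was 1.31 times the lowest for sbp-1, 1.37 times for fat-1, 1.41 times for fat-3, 1.74 times for fasn-1 and 1.78 times for pod-2. It was 1.90 times for fat-2, 2.13 times for fat-6 and 3.98 times for fat-5. In the annotation fat-3 and fat-4 are neighbours on the same strand, as are fat-1 and fat-2, and the 2 genes of each pair did not share an order of libraries.

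Levels were compared between genes as CPM per kilobase of exon, since longer transcripts collect more reads. On this scale the delta-12 and delta-9 steps led: fat-2 averaged 354 CPM per kilobase over the 7 libraries (range 241 to 458) and fat-6 averaged 282 (195 to 416). Then came fat-1 at 190.4, fat-3 at 188 and fat-4 at 182 CPM per kilobase. The enzymes that build the chain were lower, at 74.9 CPM per kilobase for pod-2 and 42.1 for fasn-1, followed by sbp-1 at 15.8 and fat-5 at 4.70.

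Within a library, fat-2 exceeded fat-6 in 7 of 7 libraries, and every other neighbouring pair in that order kept it in 7 of 7 libraries except 2. The level of fat-1 exceeded that of fat-3 in 4 of 7 libraries, and fat-3 exceeded fat-4 in 4 of 7, so these 3 genes had no fixed order. The ranges over libraries were separate between fat-4 and pod-2, between fasn-1 and sbp-1, and between sbp-1 and fat-5. Among 14644 tested features with a length, the mean level per kilobase of fat-2 was at percentile 98.0, that of fat-4 at 96.5, that of pod-2 at 92.4, that of sbp-1 at 67.2 and that of fat-5 at 36.4. The order of the 9 genes was the same with coding length in place of exon length.

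**Figure D3:**
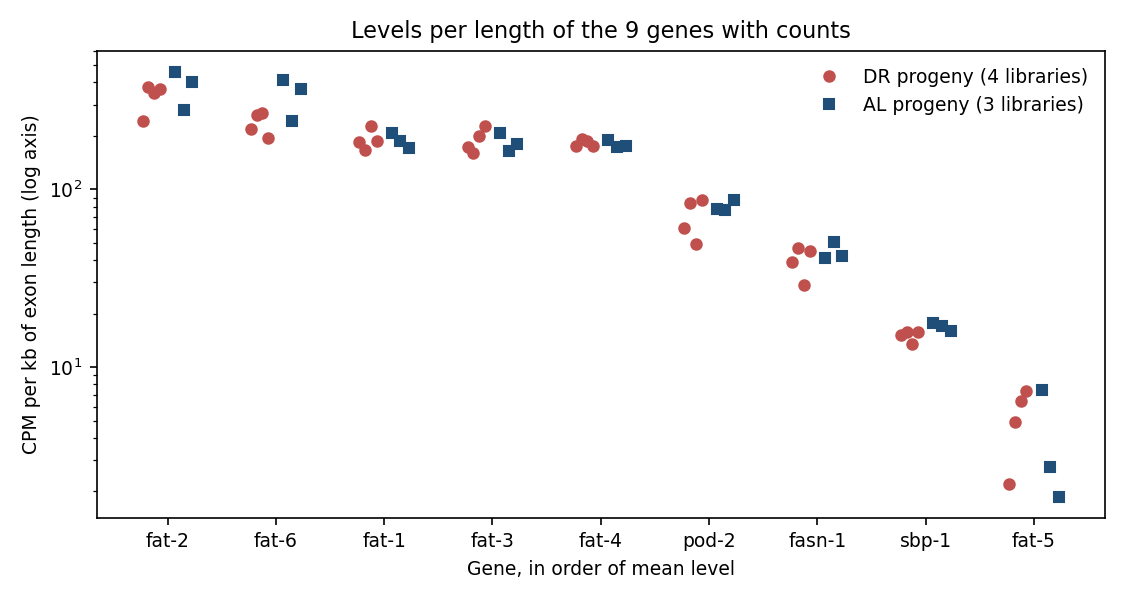
Points are single libraries (DR and AL progeny in separate colours) and give the level in CPM per kilobase of exon on a log axis, with the 9 genes in order of their mean. The 5 other desaturase genes form the upper group between 161 and 458 CPM per kilobase, and fat-5 lies lowest at 1.87 to 7.44.

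Ratios between members, taken on the per-kilobase scale, are given as description with no test. The ratio of pod-2 to fasn-1 was 0.63, 0.84, 0.77 and 0.96 on the log2 scale in DR libraries and 0.93, 0.60 and 1.04 in AL libraries, so the groups overlapped. The share of fat-5 in the summed level of fat-5 and fat-6 was 0.989%, 1.83%, 2.33% and 3.63% in DR libraries, against 1.76%, 1.11% and 0.505% in AL libraries. In every library fat-6 made up nearly all of that sum, which leaves out fat-7, listed at 0. Reads of fat-7 could be part of the fat-6 level. The next 2 ratios were chosen after their values were seen. The summed level of fat-5 and fat-6 relative to the summed level of fat-1, fat-2, fat-3 and fat-4 was -1.81, -1.74, -1.81 and -2.24 on the log2 scale in DR replicates A to D, against -1.33, -1.71 and -1.33 in AL replicates A to C. All 4 DR libraries lay below the AL libraries, although DR replicate B and AL replicate B were nearly equal. DR replicate D, the library with the most ribosomal RNA, was the farthest. Of single features tested, 5.88% had every DR library below every AL library. Since fat-6 made up 96.4% to 99.5% of the summed level of fat-5 and fat-6, this ratio largely repeats the fat-6 difference and is not a separate result. The ratio of fat-6 to fat-2 was -0.14, -0.51, -0.38 and -0.92 on the log2 scale in DR libraries and -0.14, -0.20 and -0.13 in AL libraries. Here DR replicate A lay within the AL range. The part of the ribosomal RNA share in these ratios was not tested.

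Across the 7 libraries the members did not vary as 1 group. Over 36 pairs of members, with levels as log2 CPM, the smallest exact permutation p was that of pod-2 with fasn-1 (Pearson's r = 0.84, exact permutation p = 0.0264, adjusted p = 0.528). Spearman's rho for the pair was 0.54 (exact permutation p = 0.236, adjusted p = 0.943). With group means removed r was 0.82, and it was 0.95 in the DR libraries alone. Leaving out the 2 libraries farthest from the median of pod-2 gave r = -0.27. The value of r thus depends on those libraries, although leaving them out also narrows the range of pod-2. For fat-2 with fat-6, Pearson's r was 0.68 (exact permutation p = 0.0909, adjusted p = 0.528) and Spearman's rho 0.71 (exact permutation p = 0.0881, adjusted p = 0.943), and r was 0.80 without the 2 farthest libraries. No pair passed an adjusted p of 0.05.

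The tested genes whose levels over the 7 libraries were most like fasn-1 were plx-2 (r = 0.989), dpy-23 (r = 0.987) and ocr-2 (r = 0.985), and 28 genes had r over 0.95 with it. For fat-6 they were tag-52 (r = 0.983), T05C3.6 (r = 0.979) and mbk-1 (r = 0.974), with 10 genes over 0.95. These values describe 7 libraries that share depth and composition differences, and they carry no test.

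**Figure D4:**
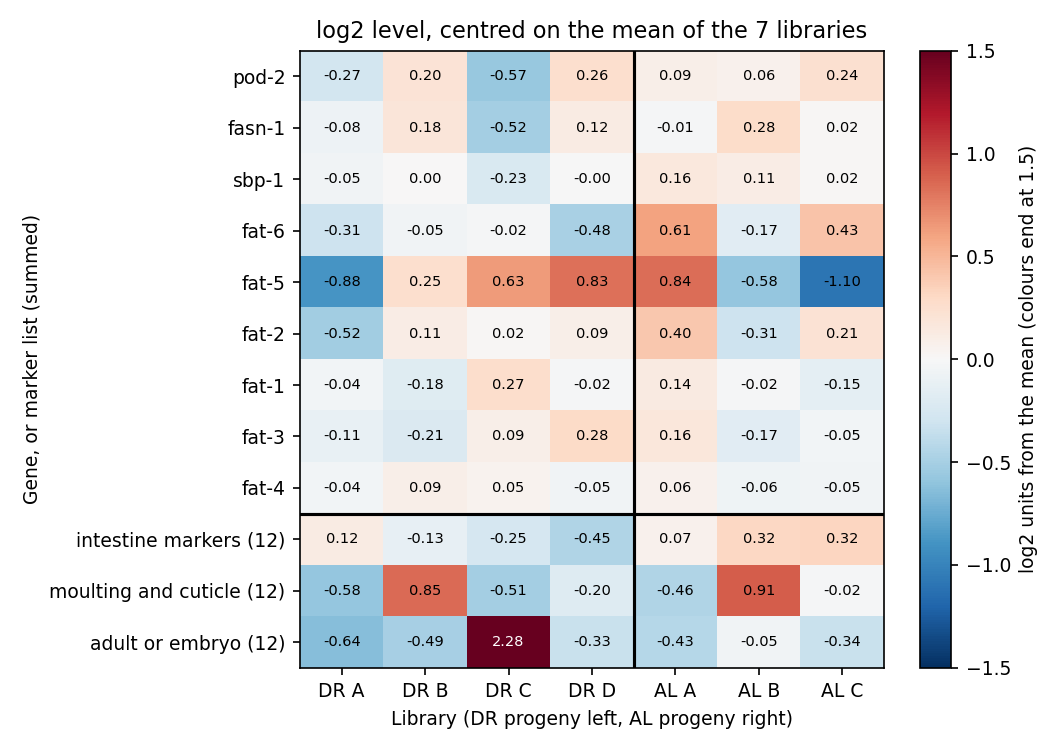
Each row is a gene or a summed marker list and each column a library (DR progeny left, AL progeny right); the colour is the log2 level minus the mean over the 7 libraries. The low pod-2 and fasn-1 values in DR replicate C share a column with the highest adult or embryo marker sum, and a link between them was not tested. The level of fat-6 is highest in AL replicates A and C.

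Genes that act beside these enzymes were taken from 3 lists. The elongation list holds the elongases, which lengthen fatty acids, and the reductase and dehydratase genes of the same cycle. Of its 12 genes 10 were tested (elo-7 and let-767 were not), and edgeR called 0, with 1 at an unadjusted p under 0.05; 5 were fitted below 0 and 5 above, with a median log2 change of 0.01. The elongase gene elo-8 had 5.28, 4.65, 4.75 and 6.07 CPM in DR libraries and 3.76, 3.90 and 3.60 CPM in AL libraries, with no overlap (log2 change 0.46, edgeR adjusted p = 0.387). The elongase gene elo-4 did not overlap either, at a mean of 2.12 CPM in DR progeny and 1.52 CPM in AL progeny (edgeR adjusted p = 0.517). It had 257 reads over the 7 libraries, and its exons overlap those of ufc-1 and C40H1.10. The predicted enoyl reductase gene art-1 averaged 52.2 CPM in DR progeny and 57.2 CPM in AL progeny (edgeR adjusted p = 0.591). Of all features tested, 5.97% had every DR library above every AL library and 5.88% had every DR library below. An unadjusted edgeR p under 0.05 was found for 10.7%. With 10 genes tested, these counts are not a result about the list.

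The list of electron transfer and precursor supply, which holds genes for the redox partners of desaturases and for acetyl-CoA and NADPH, had 12 genes tested. Of these, edgeR called 0, with 1 at an unadjusted p under 0.05; 5 were fitted below 0 and 7 above, and the median log2 change was 0.04. The lowest p was that of T05H4.4, with 2.95, 4.06, 3.65 and 6.13 CPM in DR libraries and 2.16, 2.72 and 2.98 CPM in AL libraries (log2 change 0.68, edgeR adjusted p = 0.409). Its lowest DR library, A, lay within the AL range. The glucose-6-phosphate dehydrogenase gene gspd-1, a source of NADPH, averaged 31.3 CPM in DR progeny and 26.3 CPM in AL progeny (edgeR adjusted p = 0.482). The gene hpo-19, of the same list, averaged 88.5 CPM in DR progeny and 79.7 CPM in AL progeny, with no overlap (edgeR adjusted p = 0.537). Over all features 5.97% had every DR library above every AL library, and 10.7% had an unadjusted edgeR p under 0.05. With 12 genes tested, 1 gene in either position is not a result about the list.

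Most of the listed regulators of fat synthesis were fitted below 0, and none passed the test. Of 12 genes tested, edgeR called 0, with 1 at an unadjusted p under 0.05; 10 were fitted below 0 and 2 above, with a median log2 change of -0.13. Over all features 48.4% were below 0, 10.7% had an unadjusted p under 0.05 and 5.88% had every DR library below every AL library. Other lists leaned below 0 too: 8 of 12 intestinal, 8 of 10 epidermal, 5 of 5 muscle and 8 of 11 moulting genes tested. Against these, 2 of 6 neuronal and 1 of 12 adult or embryo genes were below 0. The AMP-activated kinase subunit gene aak-2 had 99.3, 85.5, 101 and 74.7 CPM in DR libraries and 120.3, 101 and 104 CPM in AL libraries (log2 change -0.27, edgeR adjusted p = 0.454). Only DR replicate C reached the AL range, and aak-2 exons overlap those of mec-4. The gene mdt-15, whose product is a Mediator subunit that works with SBP-1, had 492, 489.9, 469 and 483 CPM in DR libraries, all below the 581, 531 and 521 CPM of AL libraries (log2 change -0.17, edgeR adjusted p = 0.521). Its exons overlap those of R12B2.8 on the other strand and R12B2.13 on the same strand. The SREBP-escort gene scp-1 averaged 30.5 CPM in DR progeny and 34.5 CPM in AL progeny (edgeR adjusted p = 0.549). For these 3 lists DESeq2, limma-voom and edgeR's exact test also called 0 genes each, with 1 gene per list at an unadjusted p under 0.05 except for the regulators under DESeq2, where there were 2.

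**Figure D5:**
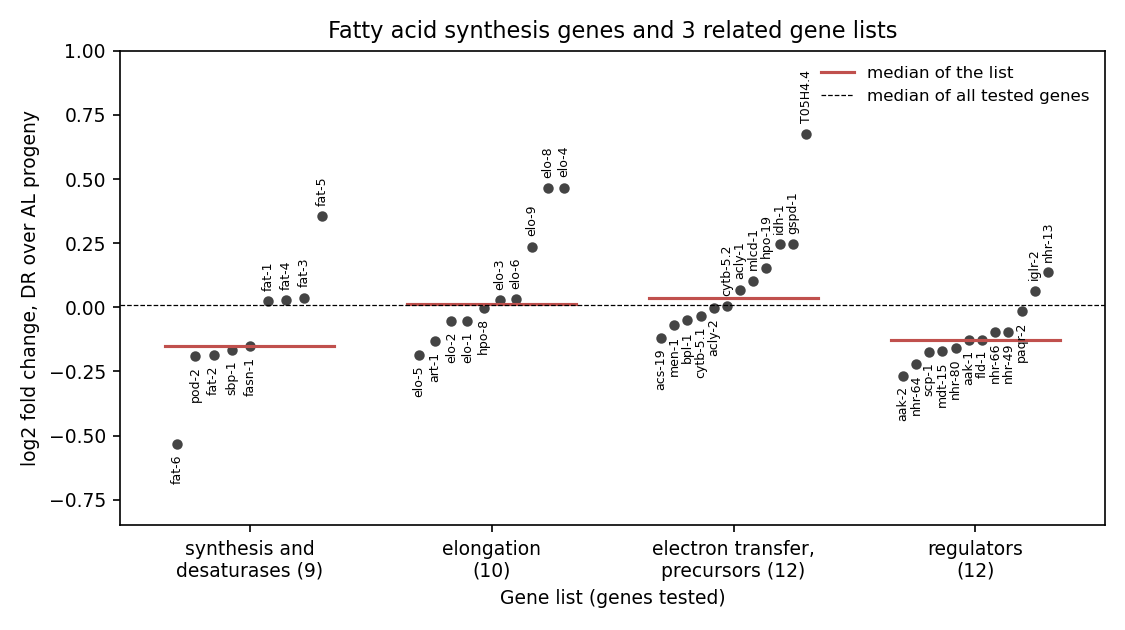
Each point is the edgeR log2 fold change (DR over AL progeny, vertical axis) of 1 tested gene. The 4 columns hold the synthesis and desaturase genes and the 3 related lists, with a bar at each list's median. The regulators have the most genes on the negative side (10 of 12), and elongation genes split 5 and 5.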

How the data were processed

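Whole-larva poly(A) RNA was sequenced from 4 DR and 3 AL libraries made without strand information, per the labels' protocols. The deposited files hold raw read counts per feature, made by the authors with Bowtie 1.1.2 and HTSeq per the submitters' processing notes. The authors also deposited a CPM table of 13439 genes and an edgeR comparison of 13436 genes with log2 fold changes and p-values, in which 38 genes passed an adjusted p of 0.05 (13 higher and 25 lower in DR progeny). The sources used here do not give the genome build and annotation behind the counts, so no coordinates are printed, and gene names, chromosomes and exon lengths come from Ensembl 115 (44443 of 44968 feature IDs matched). The HTSeq summary lines, 22.2% to 24.0% of each file's total, were left out of library sizes, and 3.35% to 4.81% of reads were ambiguous between features, which bears on pod-2, sbp-1 and fat-5, whose exons overlap a gene on the other strand.

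From the counts, edgeR 4.0.16 in R 4.3.3 was fitted over all features (TMM scaling, filterByExpr, robust quasi-likelihood, 2 groups, no covariate), with Benjamini-Hochberg adjustment over the 14867 features that passed and a threshold of 0.05. DESeq2 1.42.0, limma-voom 3.58.1 and edgeR's exact test were alternatives, together with other filters and scalings, a replicate block, a prefix or ribosomal RNA covariate and leaving out libraries. On simulated counts the edgeR fit called 52% of genes changed 1.5-fold and 86% of those changed 2-fold. Only genes above a minimum count were changed, and no prefix, ribosomal RNA or outlying-library effects were simulated. These shares therefore need not hold for the real libraries. CPM in the text are TMM-scaled. The replicate letters were not used as pairs in the main fit. Deviations of same-lettered libraries correlated at 0.197 for A, 0.268 for B and -0.101 for C. Those of libraries with different letters correlated at -0.46 to 0.253. These values do not settle whether the letters mark pairs. The submitters' design text calls the samples biological replicates. Named genes were the 10 members, the 3 genes of lowest p in each related list and the 3 genes most correlated with fasn-1 and with fat-6. Exact permutation p-values for correlations among members were added to a plan that described them only. The members and lists were chosen with earlier results of these data known. No sequence is printed, and columns of other samples numbered 0.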

Additional observations from a re-analysis of the deposited data

Results flagged for a closer look

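Within groups of 4 DR libraries, 38 sets of values were searched for 1 library far from the others, by a rule that chance meets about 1 time in 20, and 3 were found. The log2 ratio of the delta-9 genes fat-5 and fat-6 to the 4 polyunsaturated desaturase genes was -2.24 in DR replicate D, against -1.81, -1.74 and -1.81 in the other DR libraries. The adult or embryo markers summed to 747 CPM in DR replicate C, most of it vit-2 and vit-6, against 98.5, 109 and 122 CPM in the other DR libraries. The elongase gene elo-4 was at 1.72 CPM in DR replicate B, against 2.28, 2.24 and 2.24 CPM in the others.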

How the results depend on the processing

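Over 23 alternatives, fat-6 kept a log2 change below 0 (-0.73 to -0.29) and an adjusted p between 0.135 and 0.999. Calls among all features moved. With the robust edgeR quasi-likelihood fit used throughout, 2 were higher and 0 lower in DR progeny. The counts higher and lower were 27 and 50 with no filter, 19 and 36 with DESeq2, 10 and 14 with the exact test, and 191 and 425 within prefix 2, where DR progeny is 1 library assumed to vary like AL progeny. With the replicate block there were 2 higher and 2 lower, with library size only 1 higher, and 0 higher with limma-voom, without robust fitting, within prefix 1, with the ribosomal RNA covariate and without DR replicates C and D. Leaving out 1 library gave 0 to 2 higher and 0 lower. The count of members called higher was 1 within prefix 2 (fat-5, log2 change 1.69) and 0 otherwise. The replicate block gave fat-6 -0.42 (adjusted p = 0.607) and called no member.

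Some signs turned. For fat-1 the log2 change was -0.0232 with library size only, -0.0267 with the prefix covariate, -0.11 within prefix 1 and -0.10 without DR C and D (-0.0693 to 0.10 leaving out 1 library). For fat-3 it was -0.0124 with library size only, -0.0579 with the replicate block, -0.24 within prefix 1, -0.0844 with the ribosomal RNA covariate and -0.15 without DR C and D (-0.0596 to 0.13 leaving out 1). For fat-4 it was -0.0119 with library size only, -0.0128 with the prefix covariate and -0.0307 within prefix 1. For fat-5 it was -0.72 within prefix 1 and -0.18 without DR C and D. Within prefix 2, fat-2 was at 0.12 and pod-2 at 0.11. The cause was not tested. No alternative moved the median of all features beyond -0.03 to 0.02.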
